A study of Mus musculus with 6 samples.

Results

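Integrin and laminin genes were examined in adipocytes floated from inguinal subcutaneous white adipose tissue (scWAT) of male mice at P7. The family was taken by gene symbol, without a filter on counts: every integrin alpha chain (*Itga*), every integrin beta chain (*Itgb*) and every laminin chain (*Lama*, *Lamb*, *Lamc*) in the deposited table. This gave 37 genes among the 37384 symbols listed, 26 of them integrin subunits and 11 laminin chains. There were 6 RNA libraries, 3 per genotype (L1L2-FF and L1L2-AKO), and each pooled the adipocytes of 4 animals. All mice carried *Lats1* and *Lats2* alleles flanked by loxP sites, and L1L2-AKO mice carried in addition Cre recombinase driven by the *Adipoq* promoter, which acts in adipocytes, while the L1L2-FF controls had no Cre. The comparison asks how loss of the Hippo kinases LATS1 and LATS2 in fat cells alters the genes by which cells hold on to matrix and to each other.

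Integrins are receptors made of an alpha and a beta chain that span the cell membrane, bind matrix proteins or partner molecules on other cells outside it, and join the actin cytoskeleton through talin and kindlin inside it. Laminins are trimers of an alpha, a beta and a gamma chain, and they form the polymer sheet of basement membranes, the thin matrix that surrounds each adipocyte, blood vessel, Schwann cell and muscle fibre. The chains that share the beta chain *Itgb2* are made by leukocytes, those of *Itga3*, *Itga6* and *Itga7* bind laminins, those of *Itga1*, *Itga2*, *Itga10* and *Itga11* bind collagens, and those of *Itga5*, *Itga8* and *Itgav* bind fibronectin and related ligands at an RGD sequence.

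Total counts ran from 30548473 to 32107917 in L1L2-FF libraries and from 30833700 to 31972386 in those labelled L1L2-AKO. The genotype name is that on the label throughout. Levels are given as CPM (counts scaled to the same library total) after TMM normalization, with SDs over the 3 replicates, and where levels of different genes are compared they are divided by exon length (CPM per kb). *Lats1* had 76.0, 94.2 and 78.4 CPM in L1L2-FF and 38.9, 41.2 and 40.5 CPM in libraries labelled L1L2-AKO. *Lats2* went against the label, with 74.9, 85.7 and 68.5 CPM in L1L2-FF and 96.1, 126 and 135 CPM in the other libraries. The paper measured mRNA of both genes in adipocytes isolated from scWAT at the same age, and reports both as reduced in L1L2-AKO. A count covers the whole gene, floxed or not, so every direction below is one between labels. Of 10 adipocyte markers all were detected, with summed levels of 16000 to 19600 CPM in L1L2-FF and 12000 to 14500 CPM in those labelled L1L2-AKO, and 3 of them (*Adipoq*, *Pparg* and *Retn*) were lower.

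Across the family, chains of leukocyte integrins, the laminin receptor chain *Itga7* and some laminin chains rose in libraries labelled L1L2-AKO, and *Itgae* and *Itgb8* fell. Of the 37 genes, 34 had enough reads to be tested (quasi-likelihood test of edgeR, two-sided; p-values were adjusted by Benjamini-Hochberg for 15674 genes and called under 0.05, and SE is the standard error of a log2 fold change). At that threshold 13 differed, 11 higher and 2 lower, against 16.5% of all genes tested, 9.28% higher and 7.18% lower. The median log2 fold change was 0.14 over the tested members and -0.02 over all tested genes. The libraries of the genotypes did not overlap in 17 members, 12 with all libraries labelled L1L2-AKO above and 5 with all below. Among all genes tested 36.4% did not overlap, 18% above and 18.4% below. The count of 13 rested on all 6 libraries: leaving out L1L2-FF replicates 1, 2 and 3 singly gave 5, 12 and 7, and leaving out L1L2-AKO replicates 1, 2 and 3 singly gave 8, 6 and 5. The count over all genes moved too. It was 2580 with all 6 libraries, 1290, 2845 and 2283 without L1L2-FF replicates 1, 2 and 3, and 2076, 1281 and 1374 without L1L2-AKO replicates 1, 2 and 3. Of the called genes described here, *Itgam*, *Itga7* and *Lama5* passed the threshold in the same direction under all 16 alternatives that were run.

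**Figure D1:**
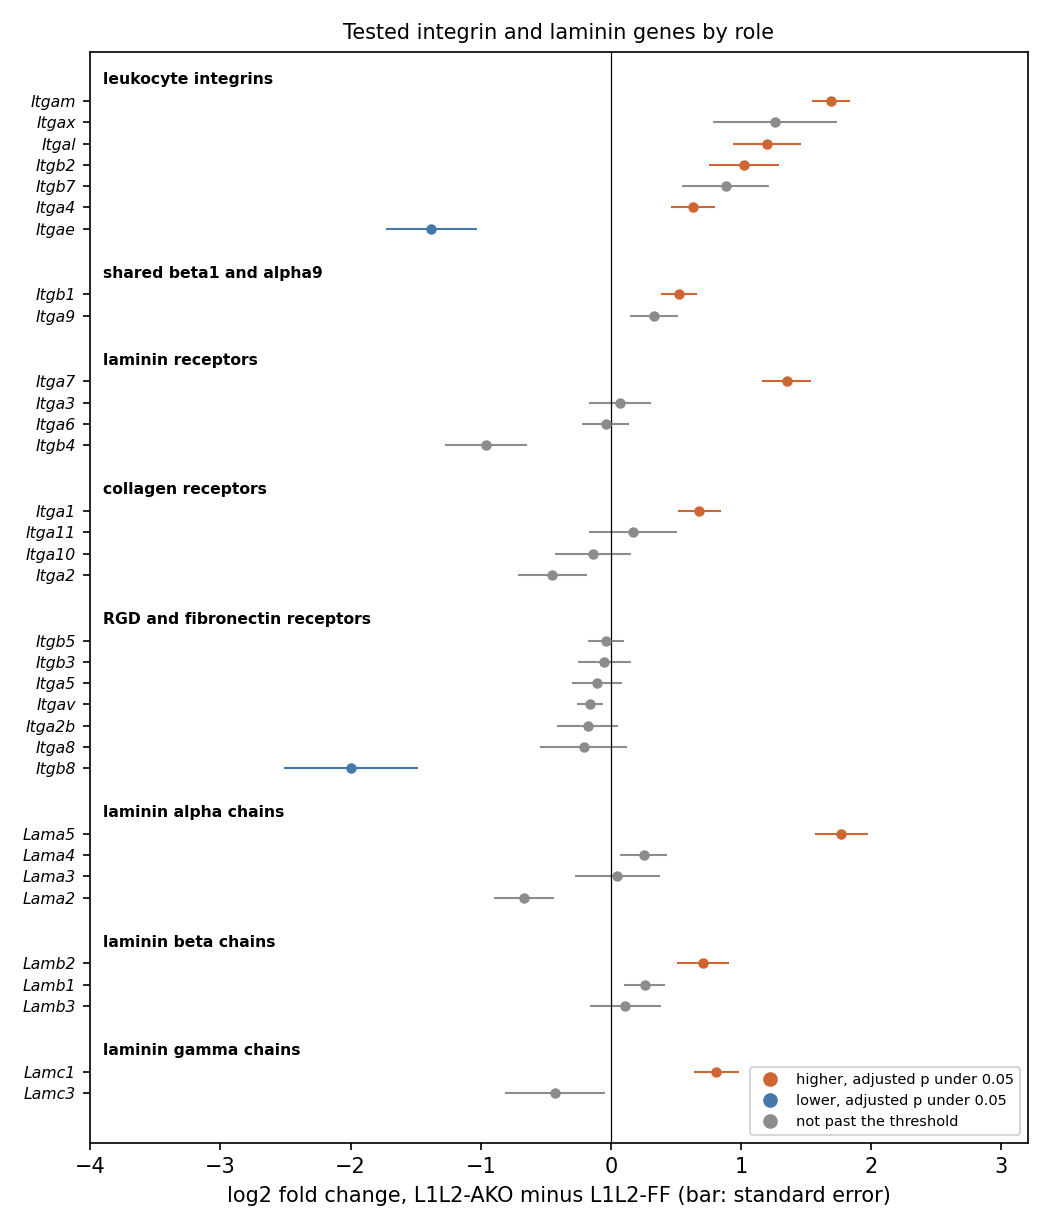
Log2 fold change (x axis, L1L2-AKO minus L1L2-FF) of the tested integrin and laminin genes described here, grouped by role, with the standard error as a bar. Orange points passed an adjusted p-value of 0.05 as higher, blue points as lower, and grey points did not pass; *Lama5* (1.77) and *Itgb8* (-2.00) lie at the ends of the plotted range.

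Leukocyte integrins were the role with the most calls. Of the 8 chains in this group, 7 were tested, 4 were higher, 1 was lower and 2 did not pass the threshold, with a median log2 fold change of 1.02. Over all genes tested, 9.28% were higher and 7.18% lower. *Itgam* encodes the alpha chain of complement receptor Mac-1 on macrophages, monocytes and neutrophils. Its level was 10.6, 11 and 8.38 CPM in L1L2-FF and 29.2, 32.9 and 34.6 CPM in those labelled L1L2-AKO. Every library of the latter group lay above every library of the former, by a log2 fold change of 1.69 (SE 0.149, edgeR adjusted p = 5.31e-04). The *Itgam* level is uncertain, since *Gm49368*, an overlapping gene model that the table does not count, holds 66.3% of its stretches of 50 bases. *Itgal*, the alpha chain of LFA-1 on lymphocytes and myeloid cells, had 7.11, 12.5 and 6.99 CPM in L1L2-FF and 16.8, 24.4 and 20.1 CPM in those labelled L1L2-AKO. These groups did not overlap either, and the log2 fold change was 1.2 (SE 0.260, edgeR adjusted p = 0.0179). Without L1L2-FF replicate 1, L1L2-AKO replicate 2 or L1L2-AKO replicate 3 the *Itgal* adjusted p-value was 0.0753, 0.0744 and 0.0558, and it ranged from 1.35e-04 to 0.0753 over all alternatives.

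*Itgb2*, the beta chain that Mac-1 and LFA-1 share, had 9.76, 16.0 and 7.31 CPM in L1L2-FF and 20.2, 23.2 and 23.7 CPM in those labelled L1L2-AKO. The L1L2-FF libraries spread more widely than the others, and all lay below them (log2 fold change 1.02, standard error 0.267, edgeR adjusted p = 0.0365). *Itga4*, the alpha chain of VLA-4 on lymphocytes, monocytes and other cells, rose from 11.8, 13.7 and 9.24 CPM to 18 CPM in all 3 of those labelled L1L2-AKO. Its log2 fold change was 0.63 (SE 0.167, edgeR adjusted p = 0.0370), again without overlap. The calls of *Itgb2* and *Itga4* were lost when any library other than L1L2-FF replicate 2 was left out, and with library size alone in place of TMM. With upper-quartile factors in place of TMM the *Itga4* call was lost as well (edgeR adjusted p = 0.0533). Over all alternatives the adjusted p-values of *Itgb2* and *Itga4* ranged from 0.00223 to 0.129 and from 0.00721 to 0.114. *Itgax*, the alpha chain known as CD11c, had 0.734, 1.61 and 0.387 CPM against 1.78, 2.47 and 2.30 CPM, and its log2 fold change of 1.26 (edgeR adjusted p = 0.118) did not pass. *Itgb7*, which pairs with the products of *Itga4* and *Itgae*, had a log2 fold change of 0.88 (edgeR adjusted p = 0.115), and its groups overlapped.

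*Itgae*, the alpha chain CD103 of epithelial lymphocytes and a subset of dendritic cells, went the other way. Its level was 3.96, 2.41 and 4.54 CPM in L1L2-FF and 0.935, 1.78 and 1.47 CPM in those labelled L1L2-AKO. The groups did not overlap, and *Itgae* fell by 1.38 on the log2 scale (SE 0.347, edgeR adjusted p = 0.0311). This call was lost when any library other than L1L2-FF replicate 2 was left out (adjusted p up to 0.103) and with the replicate block (adjusted p = 0.0525), within a range of 0.00268 to 0.103 over all alternatives. *Itgad*, a further partner of *Itgb2*, was at most at 11 counts in a library, with 0, 3 and 4 counts in L1L2-FF and 11, 4 and 7 in those labelled L1L2-AKO, and was not tested. *Itgam*, *Itgax* and *Itgad* lie side by side on the plus strand of chromosome 7 (mm10, GENCODE M21), from 128062640 to 128118491, from 128129547 to 128150657 and from 128154376 to 128223816. *Itgad* and *Itgax* share sequence, with 13.5% of the 50-base stretches of *Itgad* found in other genes.

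The number of leukocyte integrins called, 5, was 1 without L1L2-FF replicate 1, L1L2-AKO replicate 2 or L1L2-AKO replicate 3, 2 without L1L2-FF replicate 3 or L1L2-AKO replicate 1, and 6 without L1L2-FF replicate 2. Their summed level was 46.7, 61.2 and 38.9 CPM in L1L2-FF and 90.6, 109 and 107 CPM in those labelled L1L2-AKO. Markers of macrophages moved with it. The 16 macrophage markers summed to between 319 and 611 CPM in L1L2-FF and between 1150 and 1270 CPM in those labelled L1L2-AKO, 14 of them passed the threshold as higher, and none was at 0. Within L1L2-FF, both sums were highest in replicate 2 and lowest in replicate 3. That order was not particular to macrophages. Summed markers of T, B and NK cells, dendritic cells, neutrophils and mast cells, progenitors and mural cells had it too. The summed leukocyte integrins equalled 10.9%, 10% and 12.2% of the summed macrophage markers in L1L2-FF and 7.91%, 8.60% and 9.32% in the other libraries. For the 12 markers of T, B and NK cells the sum was 10.8 to 30.9 CPM in L1L2-FF and 20.1 to 37.5 CPM in those labelled L1L2-AKO. None of the 11 tested passed in edgeR's test, 3 were higher at an unadjusted p under 0.05, and DESeq2 called 1 and limma-voom 0. The 6 dendritic cell markers summed to 26.8 to 38.5 CPM and 24.3 to 36.5 CPM, and the 10 markers of neutrophils and mast cells to 77.1 to 101 CPM and 74.4 to 98.8 CPM. In bulk RNA, more cells of a type and more RNA per cell cannot be told apart, and the part of the macrophage RNA in these changes was not tested.

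**Figure D2:**
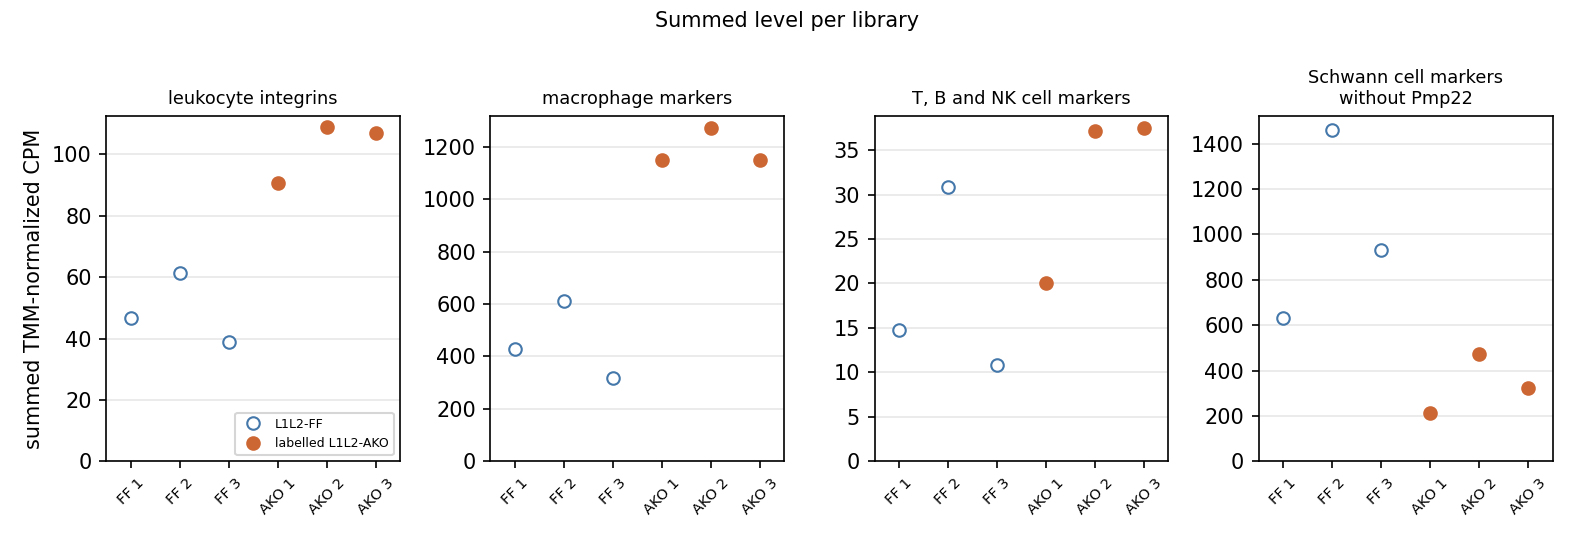
Summed TMM-normalized CPM (y axes, from 0) of the leukocyte integrins and of 3 lists of cell type markers in each library (x axis). Open points are L1L2-FF and filled points the libraries labelled L1L2-AKO. Leukocyte integrins and macrophage markers are higher in all 3 of the latter, T, B and NK cell markers overlap, and Schwann cell markers without *Pmp22* are lower. With *Pmp22*, which is not plotted, the Schwann cell sums overlap (981 to 1930 CPM in L1L2-FF and 817 to 1480 CPM in the others).

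The start of *Itgam* is shown because this gene had the smallest adjusted p-value of the family. The 250 bases before its RefSeq start (GRCm38.p6, plus strand, chr7:128062390-128062639) are printed 5′ to 3′, with capitals at matches to the core motifs named after them.
Itgam: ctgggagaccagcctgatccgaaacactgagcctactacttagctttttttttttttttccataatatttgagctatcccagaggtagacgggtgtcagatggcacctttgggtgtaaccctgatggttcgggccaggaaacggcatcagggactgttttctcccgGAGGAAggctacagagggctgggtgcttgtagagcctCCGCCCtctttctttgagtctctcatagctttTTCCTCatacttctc
Both strands were searched for GGAATG (TEAD, the DNA-binding partner of YAP and TAZ), GAGGAA (PU.1, a factor of myeloid cells), and GGGCGG (SP1). The motif of the factor AP-1, TGANTCA, was searched as well. So was the core box of promoters, TATAAA. The *Itgam* window held the PU.1 core at 84 to 79 and at 15 to 10 bases before the start and the SP1 core at 47 to 42 bases before it. In windows of the same length before all 32851 listed RefSeq starts, 23.3% held the PU.1 core, 32.7% the SP1 core and 12.6% the TEAD core.

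The other integrins centre on *Itgb1*, the beta chain that pairs with the laminin- and collagen-binding alpha chains and with those of *Itga4*, *Itga5*, *Itga8*, *Itga9* and *Itgav*. Per exon length it had the highest level of all integrin genes, 178 CPM per kb in L1L2-FF and 255 CPM per kb in those labelled L1L2-AKO. Its level was 729, 712 and 738 CPM in L1L2-FF and 955, 1050 and 1110 CPM in those labelled L1L2-AKO. No library of the latter came near the former, but the difference was modest, with a log2 fold change of 0.52 (SE 0.138, edgeR adjusted p = 0.0389). The call was lost with any of the 6 libraries left out (adjusted p from 0.0552 to 0.138) and with the replicate block (0.0674), within a range of 3.07e-04 to 0.138 over all alternatives, while the log2 fold change stayed between 0.47 and 0.57 without a library. *Itgb1* made up 78.4 ± 1.45% of the summed beta chain level per kb in L1L2-FF and 83.3 ± 1.61% in those labelled L1L2-AKO (SD, n = 3 each). *Itga9*, a partner of *Itgb1* that binds tenascin and osteopontin, had a log2 fold change of 0.33 (edgeR adjusted p = 0.282).
The 250 bases before the RefSeq start of *Itgb1* (GRCm38.p6, plus strand, chr8:128685404-128685653) are shown because they held the TEAD core. Of the 13 members past the threshold 7 had a listed start, and among these only the *Itgb1* window held that core. Of all listed windows 12.6% held it. The TEAD core lies at 7 to 2 bases before the start and overlaps a PU.1 core at 9 to 4 bases. An SP1 core lies at 151 to 146 bases.
Itgb1: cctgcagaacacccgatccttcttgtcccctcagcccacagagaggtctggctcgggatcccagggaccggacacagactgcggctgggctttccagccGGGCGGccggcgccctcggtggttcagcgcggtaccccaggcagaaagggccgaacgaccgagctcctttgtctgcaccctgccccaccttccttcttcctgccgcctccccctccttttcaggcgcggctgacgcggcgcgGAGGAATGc

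Among the laminin receptors, *Itga7* rose strongly and its relatives did not pass the threshold. *Itga7* encodes the alpha chain of the main laminin receptor of muscle, which smooth muscle and other cells also make. It lies on chromosome 10 from 128933818 to 128958282 on the plus strand. Its level was 296, 239 and 303 CPM in L1L2-FF and 613, 644 and 886 CPM in those labelled L1L2-AKO. The lowest of the latter was above the highest L1L2-FF library, and the log2 fold change was 1.35 (SE 0.188, edgeR adjusted p = 0.00287), between 1.18 and 1.45 with each library left out. *Itga6*, the other abundant laminin-binding alpha chain, had 312, 335 and 340 CPM in L1L2-FF and 412, 265 and 283 CPM in those labelled L1L2-AKO. Replicate 1 was high and the others low, the groups overlapped, and the log2 fold change was -0.04 (SE 0.182). *Itga3* was far lower per length, at 1.34 and 1.41 CPM per kb, with a log2 fold change of 0.07.

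As a share of the 3 laminin-binding alpha chains per kb, *Itga7* held 47.6 ± 3.63% in L1L2-FF and 70.2 ± 8.03% in those labelled L1L2-AKO (SD, n = 3 each), and *Itga6* went from 50.5 ± 3.72% to 28.6 ± 7.67%. The *Itga7* share was 50.4, 43.5 and 49.0% in L1L2-FF and 61.4, 72.1 and 77.2% in the other libraries, without overlap. These shares rest on exon lengths of all annotated isoforms, and 3 libraries against 3 cannot give a two-sided permutation p under 0.1. Markers of skeletal muscle summed to 11.3 to 19.3 CPM in L1L2-FF and to 3.11 to 9.53 CPM in those labelled L1L2-AKO. Of these 9 markers 5 were too low to be tested and 0 were called. Mural cell markers summed to 1550 to 1970 CPM and 1530 to 1680 CPM, with 1 of 8 higher (*Notch3*) and 2 lower (*Rgs5* and *Cspg4*). The part of muscle or mural cell RNA in the change of *Itga7* was not tested.

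*Itgb4*, the beta chain that pairs with *Itga6* in hemidesmosomes of epithelia and in Schwann cells, had 5.10, 11.5 and 7.38 CPM in L1L2-FF and 4.25, 4.85 and 3.21 CPM in those labelled L1L2-AKO. The groups did not overlap, L1L2-FF replicate 2 was the highest library, and the log2 fold change of -0.96 (SE 0.314, edgeR adjusted p = 0.0747) did not pass the threshold. DESeq2's Wald test called *Itgb4* lower.

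**Figure D3:**
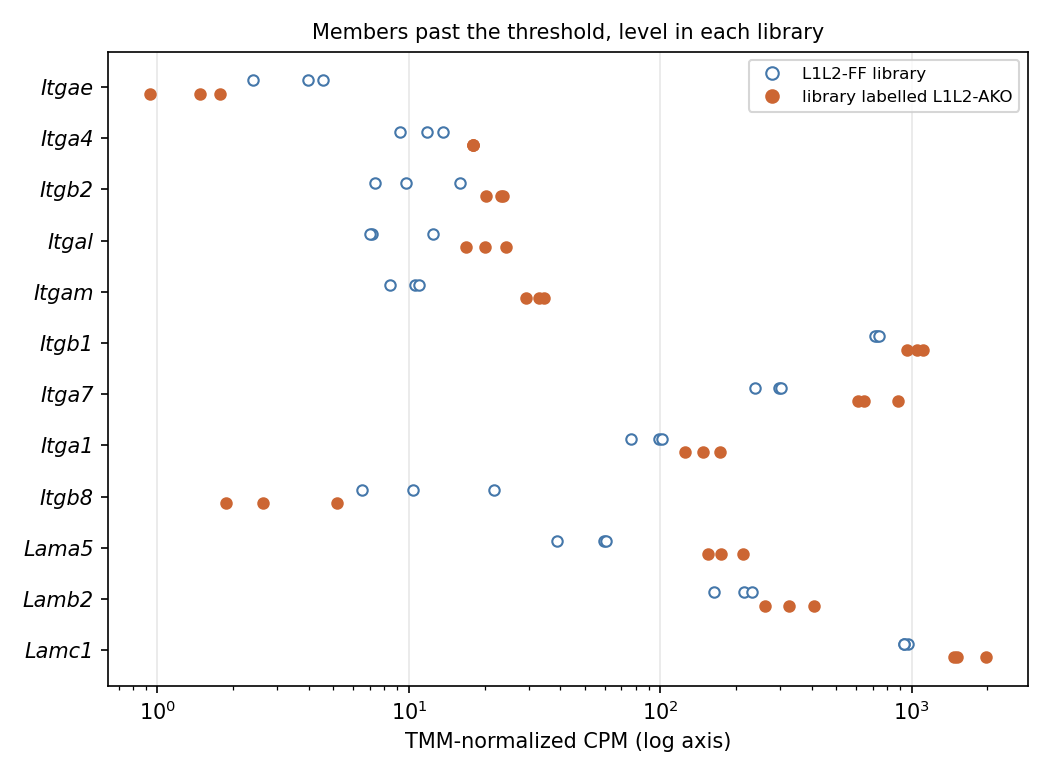
TMM-normalized CPM (x axis, log scale) in each library of the members past the threshold that are described here; open points are L1L2-FF libraries and filled points libraries labelled L1L2-AKO. In no gene do the points of the genotypes overlap; *Itgae* and *Itgb8* lie lower and the others higher in those labelled L1L2-AKO.

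Collagen receptors showed 1 change. *Itga1*, the alpha chain of a collagen receptor of basement membranes, held 74.5 ± 0.650% of the summed collagen-binding alpha chain level per kb in L1L2-FF and 84.0 ± 3.19% in those labelled L1L2-AKO (SD, n = 3 each). Its level was 99.0, 102 and 76.7 CPM in L1L2-FF and 125, 148 and 173 CPM in those labelled L1L2-AKO. All of the latter were higher, with a log2 fold change of 0.68 (SE 0.163, edgeR adjusted p = 0.0261). Without L1L2-FF replicate 1, L1L2-FF replicate 3, L1L2-AKO replicate 2 or L1L2-AKO replicate 3 the adjusted p-value was 0.0711, 0.0511, 0.0844 and 0.0871, it was 0.0502 with the replicate block, and it ranged from 0.00205 to 0.0871 over all alternatives. *Itga2* lies 21.0 kb away from *Itga1* on chromosome 13 with no protein-coding gene between them, and it had a log2 fold change of -0.45 (edgeR adjusted p = 0.307). *Itga10* and *Itga11* had means of 1.63 to 2.64 CPM in either genotype, with log2 fold changes of -0.14 and 0.17.

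Receptors for fibronectin, vitronectin and other RGD ligands held 7 tested genes, of which 6 did not pass the threshold. *Itgb5* was the most abundant of them per length, at 40.7 CPM per kb in L1L2-FF and 39.7 CPM per kb in those labelled L1L2-AKO. Its libraries stood at 137, 144 and 154 CPM in L1L2-FF and at 146, 117 and 160 CPM in the others, and the log2 fold change was -0.04 (SE 0.139), with overlap. *Itgav*, the alpha chain that joins *Itgb5*, *Itgb3*, *Itgb6* and *Itgb8*, was slightly lower in every library labelled L1L2-AKO, at 57.9, 55.3 and 55.4 CPM against 51.8, 51.5 and 47.9 CPM, a log2 fold change of -0.16 (SE 0.0973, edgeR adjusted p = 0.325). The others, *Itga5*, the alpha chain of the fibronectin receptor, *Itga8*, *Itga2b*, the platelet fibrinogen receptor chain, and its partner *Itgb3*, had log2 fold changes between -0.21 and -0.05. The 6 platelet markers summed to 13.9 to 21.8 CPM in L1L2-FF and 23.9 to 34.7 CPM in those labelled L1L2-AKO, with *Pf4* higher. Most of that sum was *Pf4* alone, at 13.3, 16.8 and 10.2 CPM against 21.2, 30.4 and 21.2 CPM. Of the others tested, *Gp1bb*, *Ppbp* and *Gp1ba* had log2 fold changes of 0.76, 0.31 and -0.86, and none passed. *Gp9* and *Gp5* were too low to be tested. The part of platelet RNA in these levels was not tested. *Itgb6*, an epithelial chain, had 2 counts in L1L2-FF replicate 3 and 0 in the other 5 libraries.

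*Itgb8*, whose receptor with *Itgav* binds latent TGFβ and helps to release the active form, was the exception. It had 6.51, 21.9 and 10.4 CPM in L1L2-FF and 1.87, 5.2 and 2.62 CPM in those labelled L1L2-AKO. The groups did not overlap although the L1L2-FF libraries spread over a wide range, and *Itgb8* fell by 2.00 on the log2 scale (SE 0.514, edgeR adjusted p = 0.0340). The call was lost without L1L2-FF replicate 2, L1L2-FF replicate 3, L1L2-AKO replicate 1 or L1L2-AKO replicate 3 (adjusted p = 0.0589, 0.0538, 0.0839 and 0.122) and with limma-voom, and the range over all alternatives was 2.35e-04 to 0.122. Without a library the log2 fold change lay between -2.53 and -1.39. Of 10 Schwann cell markers 9 had a negative log2 fold change, but the summed level of the whole list overlapped between the genotypes. Leaving out *Pmp22*, which other cells make as well and which rose, a choice made after its value was seen, the other 9 markers summed to 630, 1460 and 930 CPM in L1L2-FF and 215, 475 and 324 CPM in those labelled L1L2-AKO, which put the 6 libraries in the same order as *Itgb8* did. Of the whole list of 10, 5 passed as lower, among them *Sox10*, 1 as higher, and none was at 0. Its sum with *Pmp22* was 981, 1930 and 1450 CPM in L1L2-FF and 817, 1480 and 1420 CPM in the other libraries. The whole list thus did not put the libraries in the order of *Itgb8*. The part of Schwann cell RNA in the fall of *Itgb8* was not tested.

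Among laminin chains, the matrix ligands, at least 1 alpha, 1 beta and 1 gamma chain passed as higher. Of the 11 chains 10 were tested, 4 were higher, and 6 did not pass, with a median log2 fold change of 0.26. Over all genes tested, 9.28% were higher and 7.18% lower. No laminin chain was lower in edgeR's test of all 6 libraries. At an unadjusted p under 0.05 in that test, 1 was lower, as it was by DESeq2 after adjustment and not by limma-voom. The number of laminin chains called, 4, was 2 without L1L2-FF replicate 1 and 3 or 4 without any other library. Without L1L2-FF replicate 3 these were 3 higher and 1 lower, so 1 of the higher calls was lost and a lower call gained. *Lama5* encodes an alpha chain of mature vascular and epithelial basement membranes. Its level was 59.9, 60.8 and 38.7 CPM in L1L2-FF and 155, 175 and 213 CPM in those labelled L1L2-AKO. The gap between the groups was wider than the spread within either, with a log2 fold change of 1.77 (SE 0.204, edgeR adjusted p = 0.00141). *Lama4*, the alpha chain of adipocyte and endothelial basement membranes, was the most abundant alpha chain per length, at 57.8 CPM per kb in L1L2-FF and 68.8 CPM per kb in those labelled L1L2-AKO. It had 674, 787 and 631 CPM against 694, 780 and 1020 CPM, an overlap, and a log2 fold change of 0.25 (SE 0.184, edgeR adjusted p = 0.411).

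Among the alpha chains per kb, *Lama5* thus went from 7 ± 1.19% of the sum in L1L2-FF to 18.3 ± 0.464% in those labelled L1L2-AKO, and *Lama4* from 87.3 ± 1.74% to 78.7 ± 1.18% (SD, n = 3 each). *Lama2*, the alpha chain of muscle, Schwann cells and mesenchymal basement membranes, had 46.3, 79.3 and 42.0 CPM in L1L2-FF and 37.0, 34.5 and 34.0 CPM in those labelled L1L2-AKO. All of the latter were lower, L1L2-FF replicate 2 stood out as high, and the log2 fold change of -0.67 (SE 0.229, edgeR adjusted p = 0.0855) did not pass. *Lama3*, an epithelial chain, had a log2 fold change of 0.05, and *Lama1*, a chain of early embryonic basement membranes, reached 16 counts in its highest library and was not tested.
The window of *Lama5* (GRCm38.p6, minus strand, chr2:180225860-180226109) is shown because *Lama5* had the largest increase among the members with a listed start.
Lama5: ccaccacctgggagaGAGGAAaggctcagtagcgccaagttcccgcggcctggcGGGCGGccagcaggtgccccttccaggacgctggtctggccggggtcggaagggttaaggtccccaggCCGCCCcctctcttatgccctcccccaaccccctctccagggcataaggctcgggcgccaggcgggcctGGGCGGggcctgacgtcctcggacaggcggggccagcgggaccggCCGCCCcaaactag
It held the SP1 core 4 times and the PU.1 core once at 235 to 230 bases before the start, and neither the TEAD core nor that box. RefSeq starts were listed for 23 of the 37 members and for 7 of the 13 past the threshold. Among the 26 windows of those 23 members, 3 held the TEAD core, 13 the PU.1 core and 9 the SP1 core.

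**Figure D4:**
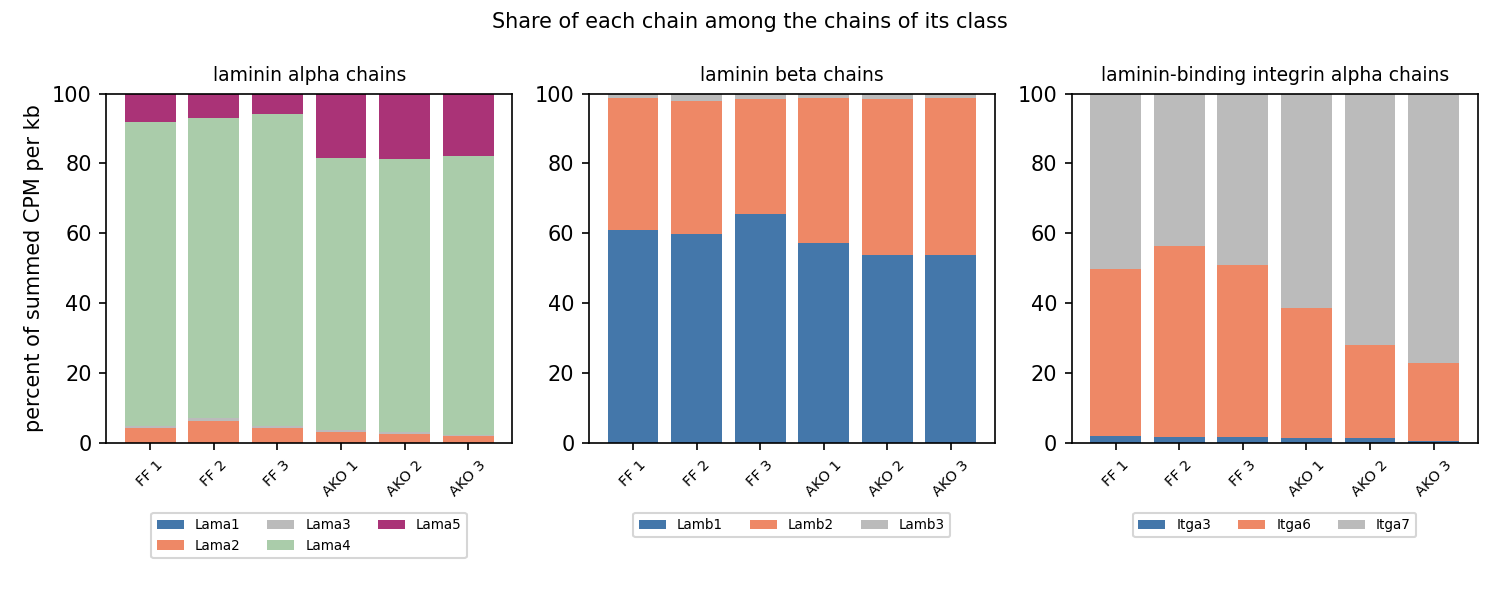
Share of each chain (y axis, percent of the summed CPM per kb of exon) in each library (x axis), for laminin alpha chains, laminin beta chains and laminin-binding integrin alpha chains. *Lama5* and *Itga7* take larger shares in the 3 libraries labelled L1L2-AKO (17.7 to 18.6% and 61.4 to 77.2%) than in the 3 L1L2-FF libraries (5.80 to 8.18% and 43.5 to 50.4%).

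Of the beta chains, *Lamb2*, which is found in vascular, muscle and nerve basement membranes, had 215, 231 and 164 CPM in L1L2-FF and 262, 326 and 410 CPM in those labelled L1L2-AKO. The groups did not overlap, and the log2 fold change was 0.71 (SE 0.199, edgeR adjusted p = 0.0462). This was close to the threshold. The adjusted p-value was 0.115, 0.0955, 0.118 and 0.138 without L1L2-FF replicate 1, L1L2-FF replicate 3, L1L2-AKO replicate 2 and L1L2-AKO replicate 3. It was 0.0788 with the replicate block and 0.0545 with upper-quartile factors in place of TMM, and it ranged from 0.00585 to 0.138 over all alternatives. *Lamb1*, the more abundant chain per length, had 563, 593 and 530 CPM against 588, 636 and 799 CPM, a log2 fold change of 0.26 (edgeR adjusted p = 0.312) with overlap. *Lamb2* made up 36.3 ± 2.82% of the beta chain level per kb in L1L2-FF and 43.8 ± 1.88% in those labelled L1L2-AKO (SD, n = 3 each). *Lamb3*, an epithelial chain, had a log2 fold change of 0.11.

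*Lamc1* encodes the gamma chain of nearly all laminins outside epithelia, and it was the most abundant laminin gene per length, at 114 CPM per kb in L1L2-FF and 200 CPM per kb in those labelled L1L2-AKO. Its level was 967, 935 and 930 CPM in L1L2-FF and 1510, 1480 and 1970 CPM in those labelled L1L2-AKO. The L1L2-FF libraries lay close together and all others well above them, with a log2 fold change of 0.81 (SE 0.170, edgeR adjusted p = 0.0158, and 0.0686 without L1L2-FF replicate 1, the highest of all alternatives, whose range began at 6.79e-06). *Lamc1* lies on the minus strand of chromosome 1 from 153218922 to 153332786. *Lamc3* had a log2 fold change of -0.43 (edgeR adjusted p = 0.505).

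Among the markers of endothelial, epithelial and progenitor cells, which all make laminins, none passed as higher. Of the mural cell markers given above 1 was higher (*Notch3*) and 2 were lower. Of the Schwann cell markers 1 was higher (*Pmp22*) and 5 were lower. The part of any of these cells in the laminin changes was not tested. The 10 endothelial markers summed to 2110 to 2800 CPM in L1L2-FF and 1260 to 2730 CPM in those labelled L1L2-AKO, and edgeR's test called none, with 1 lower at an unadjusted p under 0.05 and 0 called by DESeq2 or limma-voom. The 8 epithelial markers summed to 5.38 to 10.6 CPM and 2.06 to 3.23 CPM, with *Trp63* lower and 6 too low to be tested. Progenitor markers summed to 594 to 894 CPM and 445 to 585 CPM, with 1 of 8 lower.

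Genes for proteins that act on integrins inside the cell were called higher in part. Of 26 genes of the adhesion machinery, 25 were tested, 9 were higher and none was lower, with a median log2 fold change of 0.39. Over all genes tested, 9.28% were higher and 7.18% lower, and the median was -0.02. No gene of the adhesion machinery was lower at an unadjusted p under 0.05 either, nor by DESeq2 or limma-voom. The largest changes were in *Apbb1ip*, which recruits talin in leukocytes, from 9.33 ± 1.36 to 39.2 ± 10 CPM (SD, n = 3 each, log2 fold change 2.07), and in *Tns3*, a tensin that binds integrin tails, from 38.7 ± 3.13 to 154 ± 24.2 CPM (log2 fold change 2.00). *Fermt3*, the kindlin of blood cells, rose from 6.97 ± 1.79 to 20.4 ± 1.43 CPM (log2 fold change 1.55), and *Tln1*, the talin that activates integrins in most cells, from 366 ± 27.5 to 725 ± 61.5 CPM (log2 fold change 0.99). *Apbb1ip* and *Fermt3* are expressed chiefly in blood cells, and the part of macrophage RNA in their rise was not tested. The number of these genes called, 9, was 5 without L1L2-AKO replicate 2 and 6 to 11 without any other library.

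Of 11 partners of laminin in basement membranes, *Nid2*, a nidogen that links laminin to collagen IV, rose from 361 ± 121 to 1520 ± 576 CPM (SD, n = 3 each, log2 fold change 2.08, edgeR adjusted p = 0.00616) and *Ntn4*, a netrin that binds laminin gamma chains, from 2.21 ± 0.341 to 12.1 ± 5.46 CPM (log2 fold change 2.45, edgeR adjusted p = 0.00452). The other 9 did not pass in edgeR's test, among them *Nid1* with a log2 fold change of 0.00. At an unadjusted p under 0.05, 4 of the 11 were higher, and DESeq2 called 4 higher and limma-voom 2. Of all genes tested, edgeR called 9.28% higher and 7.18% lower. Over all genes and both directions, edgeR called 2580, DESeq2 3374 and limma-voom 2451. The 8 genes for ligands of leukocyte integrins on other cells gave 0 calls in edgeR's test among 7 tested, with 1 higher and 2 lower at an unadjusted p under 0.05, 2 called by DESeq2 and 0 by limma-voom. *Icam1* and *Vcam1*, ligands of LFA-1 and VLA-4, had log2 fold changes of -0.48 and -0.04. *Cdh1*, the E-cadherin bound by the *Itgae* product, had a log2 fold change of -1.77 (edgeR adjusted p = 0.0977), and *Icam4* had no count in any library.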

How the data were processed

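Per the study's methods, the authors aligned paired reads to mm10 with HISAT2 and analysed them with StringTie (2.1.0 and 1.3.5 in the submitters' processing notes). In the table deposited by the authors each symbol has unnormalized read counts per library. The annotation, counting program and strand setting are not given in the sources used here, so reads of overlapping genes may be shared. The study calls the 3 libraries of a genotype biological replicates, each a pool, so p-values measure the spread between pools.

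Counts were compared between L1L2-AKO and L1L2-FF with edgeR 4.0.16 in R 4.3.3: the default filterByExpr filter (minimum count 10, minimum total 15), which kept 15674 genes, TMM, and its two-sided quasi-likelihood test, called under a Benjamini-Hochberg adjusted p of 0.05. SE was computed as |log2 fold change| divided by the root of F. The common biological coefficient of variation was 0.206. DESeq2 1.42.0 and limma 3.58.1 served as alternatives, beside other normalizations and filters, a 2-fold threshold, the replicate number as a block and each library left out. Scripts were tested on simulated data. Counts of 3 or fewer were taken as the floor, equal to 0.0904 to 0.105 CPM, which covers counting error only.

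Positions and exon lengths come from GENCODE M21 (mm10), in which 36888 symbols were found and 385 more through a synonym. Starts are those of RefSeq on GRCm38.p6. Members were described by role: those past the threshold with every library, the most abundant of each role per length, and the rest by range. The members, lists and tests were chosen with earlier results of these data known. Some results are not reported here. Replicates of a genotype differed by more than sampling noise.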

Additional observations from a re-analysis of the deposited data

How the results depend on the processing

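The 13 members called by edgeR numbered 11 to 15 with the other normalizations, count filters and tests, and 8 with an added 2-fold threshold. Over all genes the main fit called 2580, DESeq2, which gave the 15, called 3374, and the 2-fold threshold left 1366. Without single libraries the count of members was 5 to 12, and that of all genes 1281 to 2845. Of the leukocyte integrins 5 were called, 3 of them with library size alone in place of TMM, and 1 to 6 without a library. DESeq2 called 2 laminin receptors in place of 1. The 2-fold threshold, by its construction, left 2 laminin chains of 4 and 3 adhesion genes of 9, and without a library these were 2 to 4 and 5 to 11. *Itgb5* lay between -0.13 and 0.08 on the log2 scale without single libraries and changed sign without L1L2-FF replicate 3 (0.00) and without L1L2-AKO replicate 2 (0.08), where its adjusted p was 0.989 and 0.788. Other causes were not tested. Same-numbered libraries deviated from their group means with correlations of 0.188, 0.255 and -0.054 for replicates 1 to 3. For differently numbered libraries the correlations ran from -0.324 to 0.211. These ranges overlap, so the values cannot settle whether the number pairs the libraries. With the replicate block 9 members were called, among them 4 leukocyte integrins, 1 laminin receptor and 3 laminin chains, and of the adhesion machinery 9 genes. Among the members, the smallest called change was 0.52 on the log2 scale (*Itgb1*).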
